A study of Mus musculus with 18 samples.

Results

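Chaperones were read across 3 cell fractions of the adult mouse brain. The set holds the genes named as heat shock proteins (HSP90, HSP70, HSP110 and small HSP families), J-domain proteins (*Dnaj* genes), subunits of the cytosolic TRiC/CCT and mitochondrial chaperonins, the BAG-domain genes, the adaptors *St13* and *Stip1*, and the transcription factor *Hsf1*. Members were taken by gene name from a table of transcript read counts, pseudogene names excluded, and the reads of all transcripts of a name were summed. The rule found 93 of the 35960 names in the table, with 496 transcripts and 101466 reads, which is 0.260% of all reads. At least 5 reads in at least 2 of the 18 libraries were found for 78 of the 93, against 13552 names in all. The other 15 did not pass, so nothing is said of their differences. Among them were *Bag2*, *Cct6b*, *Cct8l1*, *Dnajb3*, *Dnajb7*, *Dnajb8*, *Dnajc22*, *Dnajc28*, *Dnajc5b*, *Dnajc5g*, *Dnajc9*, *Hspb2*, *Hspb7* and *Hspb9*.

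The mice were homozygous for an expanded CAG repeat knocked into the endogenous *Atxn2* gene (Atxn2-CAG100-KIN, here KIN) or wild-type littermates (WT), on a C57BL/6 background and aged 10 months. The knock-in is in every cell of the animal, so no driver restricts it. Each brain was digested with enzymes in a heated dissociator. Microglia were then taken with beads against CD11b, astrocytes with beads against ACSA-2, and neurons as what was left after depletion of non-neuronal cells and of CD31-positive cells. RNA was sequenced after rRNA depletion and tailing, with molecular identifiers. Each of the 6 groups (fraction by genotype) holds 3 libraries. Animals of both sexes were used, and the labels do not say which library came from which.

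Chaperones hold unfolded or partly folded proteins away from aggregation and help them reach their native state. HSP70 works in an ATP cycle in which J-domain proteins deliver the client and start hydrolysis, and nucleotide exchange factors of the HSP110 and BAG families let the client go. HSP90 takes late folding clients from HSP70 through the adaptor STIP1, small HSPs bind unfolding clients without ATP, and the TRiC/CCT ring folds actin, tubulin and other cytosolic proteins. *Hsf1* encodes the factor that raises the inducible members after heat or other proteotoxic stress. In the brain these proteins are best known for their action on aggregation-prone proteins, among them those with expanded polyglutamine.

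Total depth was 761481 to 3296398 reads per library, with the lowest totals, 761481 to 1017972, in the WT neuron libraries. Replicate 2 of WT microglia stood apart from its group: its counts differed from replicate 1 with a chi-square of 45.6 per degree of freedom, against 1.72 for the closest pair of replicates in the series. Replicate 2 of WT neurons (18.5 and 17.7 against its group, 1.91 for the other pair) and replicate 1 of KIN microglia (16.5 and 19.5, against 2.12) also differed from their groups. So did replicate 2 of WT astrocytes, at lower values (9.69 and 5.34, against 2.25). The microglial marker list summed to 447 to 765 CPM (counts scaled to the library total, with edgeR's TMM factors) in microglia and to 15.4 at most elsewhere, with *Aif1*, *Tmem119* and *P2ry12* at 0 in both neuron groups. Astrocyte markers summed to 494 to 729 CPM in WT and 277 to 300 CPM in KIN astrocytes, and to 27.7 at most elsewhere. In the same fraction the oligodendrocyte list reached 356 to 553 CPM in WT and 616 to 631 CPM in KIN, so the fraction sorted as astrocytes also carried oligodendrocyte RNA. The neuronal list was 105 to 141 CPM in WT neurons, which overlapped the 45.2 to 136 CPM of WT astrocytes, and 113 to 170 CPM in KIN neurons. In WT neurons *Tubb3* (64.7 to 77.0 CPM) and *Gad1* (14.4 to 29.3 CPM) lay above WT astrocytes (5.53 to 10.0 and 2.28 to 4.59 CPM) and WT microglia, as the label has it. The other 7 genes of the list, *Snap25* and *Rbfox3* among them, had a higher mean in WT astrocytes than in WT neurons. The red blood cell list in the neuron fraction was 69.0 to 328 CPM over both genotypes. Fewer cells of a type and less RNA per cell cannot be told apart in such bulk fractions.

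Most member reads did not come from protein-coding transcripts. Retained-intron transcripts took 83648 of the 101466 member reads (82.4%), protein-coding transcripts 16230 (16.0%) and other classes 1588 (1.57%). Over all features in the table, retained-intron transcripts held 10.9% and protein-coding transcripts 58.6% of reads. Without *Hspa8* and *Tcp1* the share was 16.8% (3220 of 19207 member reads), so these genes made up most of the excess. *Hspa8*, encoding the constitutive cytosolic HSP70 (HSC70), held 68377 reads, of which 97.0% fell on 1 retained-intron transcript, ENSMUST00000149936 (GRCm39, chr9:40712572-40716495, plus strand). An exon of that transcript, at chr9:40714270-40716495, holds 3 whole small nucleolar RNA (snoRNA) genes. *Tcp1*, encoding a TRiC/CCT subunit, held 13882 reads, of which 44.1% fell on ENSMUST00000129632 (chr17:13135336-13143449, plus strand), whose exon at chr17:13136930-13138812 holds the snoRNA gene *Gm26130*.

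The 4 embedded snoRNA genes are printed because they lie in the transcripts that took most *Hspa8* reads and 44.1% of the *Tcp1* reads. Snord14c lies at chr9:40714879-40714964, Snord14d at chr9:40715291-40715376, Snord14e at chr9:40716044-40716133 and Gm26130 at chr17:13138472-13138609, all on the plus strand of GRCm39. Capitals mark the C box (TGATGA) and D box (CTGA) of the *Snord14* genes, and the last ACA of Gm26130. Snord14c and Snord14d differ at 2 of 86 bases.
Snord14c: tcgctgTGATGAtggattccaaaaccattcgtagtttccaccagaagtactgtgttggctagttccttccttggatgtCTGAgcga
Snord14d: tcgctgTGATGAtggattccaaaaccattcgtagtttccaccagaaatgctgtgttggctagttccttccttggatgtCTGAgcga
Snord14e: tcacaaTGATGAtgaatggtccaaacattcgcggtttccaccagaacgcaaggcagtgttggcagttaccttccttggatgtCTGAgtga
Gm26130: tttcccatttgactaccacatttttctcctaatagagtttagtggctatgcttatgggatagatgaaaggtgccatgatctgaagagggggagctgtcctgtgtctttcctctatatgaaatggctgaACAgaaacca
The counts do not show where within the host transcripts the reads lay, and the part of the snoRNAs in the *Hspa8* and *Tcp1* totals was not tested. Protein-coding transcripts gave 2.34% of *Hspa8* reads (1.43% to 4.61% by library) and 0.792% of *Tcp1* reads, only 110 reads in all libraries together. For both genes nearly all reads were assigned to transcripts annotated as retained introns, and values from protein-coding transcripts alone are given beside the genotype comparisons of the sums.

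**Figure D1:**
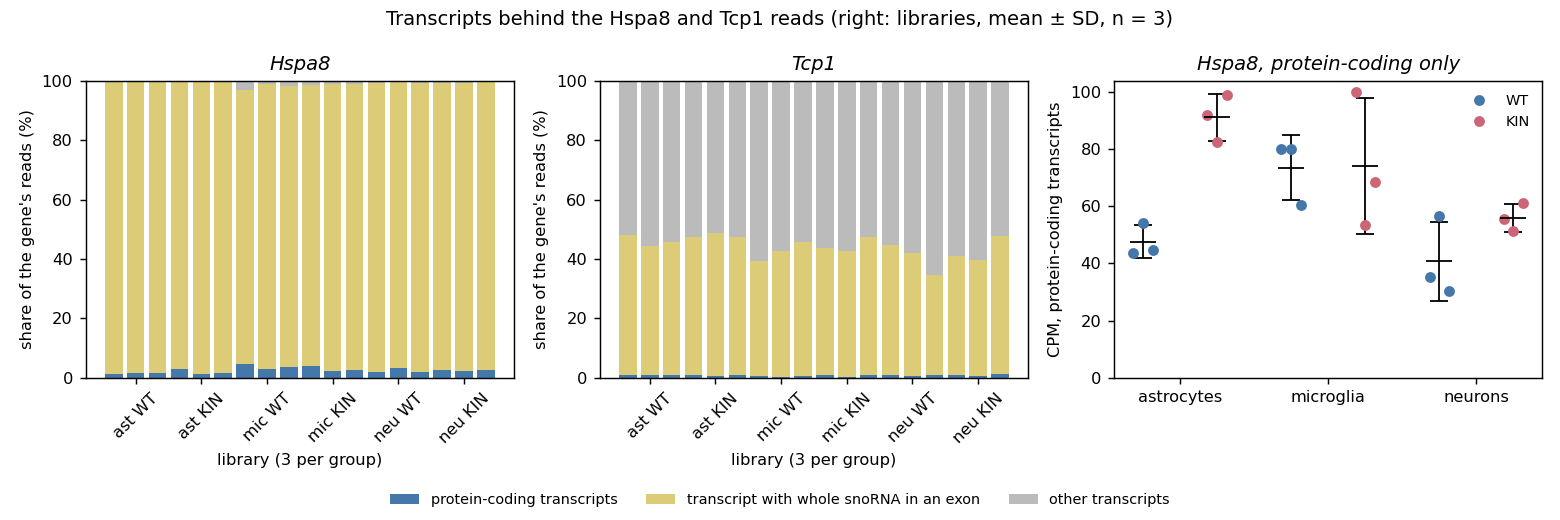
Share (%) of the *Hspa8* and *Tcp1* reads of each of the 18 libraries by transcript, and *Hspa8* level in CPM from protein-coding transcripts alone (points are libraries, bars mean ± SD, n = 3). Protein-coding transcripts are a thin base of every *Hspa8* bar (1.43% to 4.61%), and in the right panel all KIN astrocyte libraries (82.4 to 98.9 CPM) lie above the WT ones (43.7 to 54.3 CPM).

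A member was called higher or lower at an edgeR quasi-likelihood adjusted p of at most 0.05, Benjamini-Hochberg over all genes, with at least a 2-fold change. Between genotypes few members passed. In astrocytes, 74 members were tested and 2 rose in KIN, *Cct6a* and *Dnajc14*, where 2.43% of all genes rose and 6.42% fell. No member fell there, and 15 had an unadjusted p under 0.05, 12 of them with higher values in KIN. These are 16.2% higher and 4.05% lower of the members, where 10.4% and 14.5% of all genes reached that p. DESeq2 called 0 of the 74, where 0.928% of all genes rose and 2.48% fell in that fit. In microglia 1 of 70 tested members fell, *Hspa1a*, where 0.785% of all genes fell and 0.739% rose. In neurons edgeR and DESeq2 each called 0 of 45 members, 1 of which (*Cct3*, 2.22% of members) had an unadjusted p under 0.05, as had 5.04% of all genes. Over all genes 0% rose and 0.0739% fell in KIN neurons. The median log2FC of the members was 0.16 in astrocytes (-0.00 over all genes), -0.06 in microglia (-0.01) and -0.04 in neurons (0.04).

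Genotype groups without any overlap were counted as a further description. In astrocytes all KIN libraries lay above all WT libraries for 10 of 74 members (13.5%), where 13.8% of all genes did so, and below them for 4 (5.41%), where 14.1% of all genes did. Microglia had 5 of 70 members above (7.14%, all genes 8.46%) and 11 below (15.7%, all genes 7.55%). Those 11 were *Dnajb1*, *Dnajb11*, *Dnajb2*, *Dnajc27*, *Hsp90aa1*, *Hsp90ab1*, *Hspa1a*, *Hspa1b*, *Hspa2*, *Hspb3* and *Tcp1*. *Tcp1* is among them by its retained-intron reads, since from protein-coding transcripts it had 3.98, 2.52 and 2.95 CPM in WT and 4.87, 2.45 and 4.86 CPM in KIN microglia, overlapping and with the higher mean in KIN. In neurons 8 of 45 members lay above (17.8%, all genes 11.5%) and 0 below (all genes 2.22%). *Hspa8* and *Tcp1* were among those 8, but overlapped from protein-coding transcripts (*Hspa8* 30.5 to 56.4 CPM in WT and 51.2 to 61.1 CPM in KIN, *Tcp1* 3.42 to 5.54 and 3.94 to 8.73 CPM). The KIN effect was also compared between the glial fractions with an interaction term. With edgeR and with DESeq2, 0 of 77 members passed, where 0.776% of all genes passed with a higher and 0.369% with a lower effect in microglia. An unadjusted p under 0.05 was seen for 12 members, 10 of them (13.0%) with a lower effect in microglia, where 7.13% of all genes had a higher and 6.00% a lower effect at that p. The smallest adjusted p values were those of *Dnajb2* (-1.50, adjusted p = 0.0650), *Hsp90aa1* (-1.15, adjusted p = 0.0981) and *Hsp90ab1* (-1.0, adjusted p = 0.128).

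**Figure D2:**
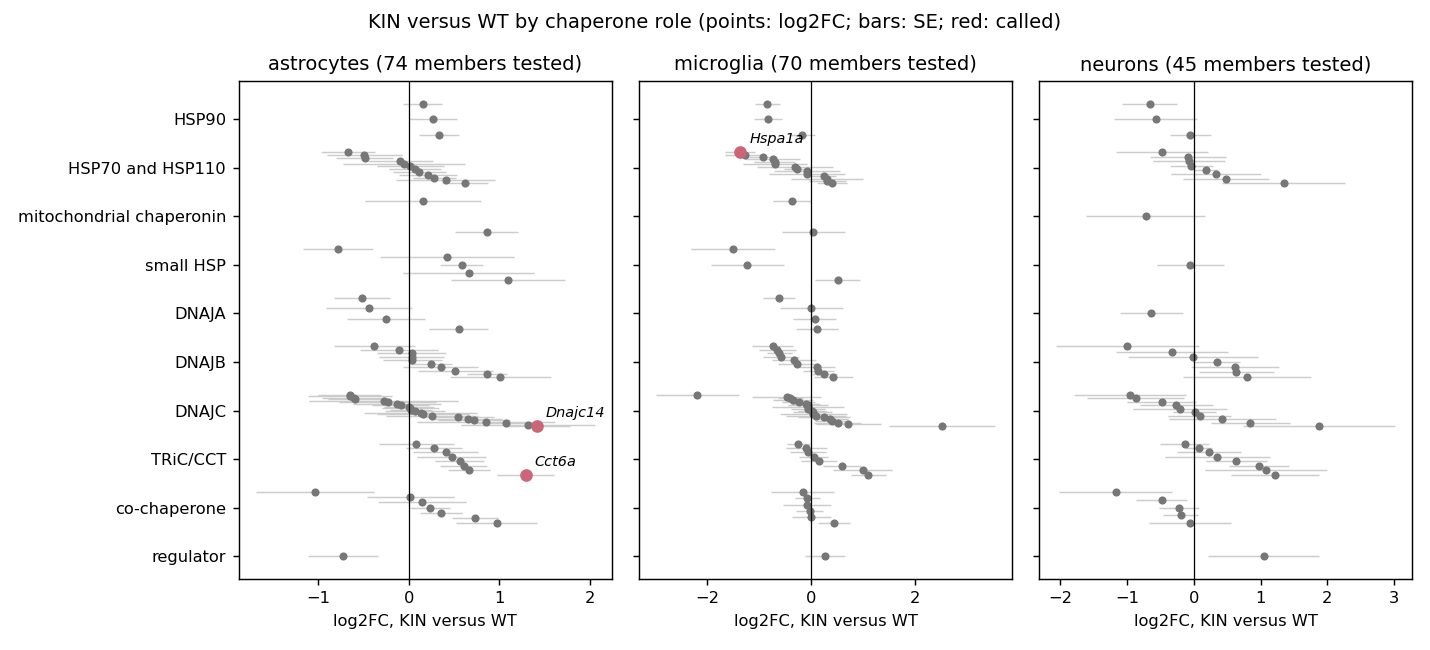
Log2FC of KIN over WT for every tested member in each fraction, grouped by chaperone role, with bars for the SE, called members in red and a separate log2 axis for each fraction. The medians are 0.16, -0.06 and -0.04, and the called members are *Cct6a* and *Dnajc14* in astrocytes and *Hspa1a* in microglia.

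Differences between fractions were more frequent. Each genotype was fitted alone, so WT and KIN rest on different mice, but within a genotype the comparisons share libraries. Against WT astrocytes, WT microglia had 8 of 74 members higher and 6 lower, where 12.0% and 13.1% of all genes were called. WT neurons had 1 higher and 8 lower against astrocytes (all genes 6.07% and 11.9%), and 3 higher and 7 lower against microglia (5.29% and 11.6%). In KIN, microglia had 5 higher and 15 lower than astrocytes (17.5% and 18.8%), neurons 3 higher and 15 lower than astrocytes (13.2% and 16.9%), and neurons 5 higher and 9 lower than microglia (11.3% and 15.2%). These shares of members, out of 74 each time, were of the order of the background or below it in most comparisons. Calls shared by both genotypes were *Bag1*, *Hspa1a* and *Hspa1b* higher and *Cryab*, *Dnajb2*, *Dnajc6* and *Stip1* lower in microglia than in astrocytes. In neurons *Cryab*, *Dnaja4*, *Dnajb12*, *Dnajb2*, *Dnajc3* and *Dnajc6* were lower than in astrocytes, *Bag6*, *Hspb11* and *Stip1* were higher than in microglia, and *Hsp90b1*, *Hspa1a* and *Hspa1b* were lower than in microglia in both genotypes. Of all 88 calls, 30 held in every alternative tried, 9 held wherever they were tested but gave no test in at least 1, and 49 were lost in at least 1. For lost calls described below, the library whose omission ended the call is given. Without WT neuron replicate 2, 1 member was called higher and 7 lower in WT neurons than in astrocytes (all genes 4.95% and 9.66%), and 2 higher and 8 lower than in microglia (4.12% and 9.36%). Without KIN microglia replicate 1, 6 were higher and 11 lower in KIN microglia than in astrocytes (all genes 15.9% and 17.8%), and 6 higher and 8 lower in KIN neurons than in microglia (11.9% and 13.3%).

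The inducible HSP70 pair was highest in microglia. *Hspa1a* (chr17:35188166-35191132, minus strand, GRCm39) and *Hspa1b* (chr17:35175412-35178214, minus strand) encode the stress-inducible cytosolic HSP70. Their transcripts share 2524 identical bases (85.1% of the longer one), so reads may be divided between them by the mapping. *Hspa1a* stood at 51.4, 23.3 and 45.1 CPM in WT microglia and at 18.3, 9.69 and 18.9 CPM in KIN microglia. The groups did not overlap. Replicate 2 was the lowest library in both, as it was in the 4 groups of the other fractions. The log2FC was -1.37 (SE 0.29, edgeR adjusted p = 0.0133). Without WT replicate 2 the value was -1.64 (adjusted p = 4.72e-05). Without any other single library *Hspa1a* no longer passed, with adjusted p = 0.112 without WT replicate 1, 0.0650 without WT replicate 3, and 0.0598, 0.153 and 0.0624 without KIN replicates 1, 2 and 3.

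*Hspa1b* followed the same order with 44.2, 22.8 and 37.9 CPM in WT and 21.1, 12.6 and 22.4 CPM in KIN microglia. Here the highest KIN library stood just under the lowest WT library, and the log2FC of -0.92 did not pass (edgeR adjusted p = 0.0842). Without WT microglia replicate 2, the library that stood apart, 4 members passed as lower in KIN microglia: *Hspa1a*, *Hspa1b* (-1.15, adjusted p = 0.00191), *Hsp90ab1* (-1.05, adjusted p = 0.00116) and *Hsph1* (-1.52, adjusted p = 0.00960). In that fit 2.12% of all genes were called lower, against 4 of 69 members. The neuronal marker list moved with this comparison, at 17.9 to 64.5 CPM in WT and 8.62 to 10.3 CPM in KIN microglia, with 5 of its 9 genes lower in KIN and none at 0. The oligodendrocyte list, at 27.3 to 29.0 CPM in WT and 13.5 to 16.5 CPM in KIN, and the astrocyte list, at 22.3 to 27.7 CPM and 15.5 to 18.0 CPM, were also lower without overlap. Of their genes tested, 0 of 4 and 1 of 3 were called lower, and none was at 0. The pericyte sum was lower too (2.55 to 3.58 and 1.44 to 1.99 CPM), and the endothelial sum overlapped, with 1 of 3 genes called lower. The immediate-early list, which includes *Fos*, *Jun* and *Egr1* and answers to tissue dissociation, overlapped between the genotypes at 1147 to 1240 CPM in WT and 1155 to 1348 CPM in KIN. The part of these lists in the *Hspa1a* difference was not tested.

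In the other fractions the pair was lower. WT astrocytes had 9.89, 8.45 and 11.6 CPM of *Hspa1a* and KIN astrocytes 8.35, 3.07 and 6.52 CPM. All KIN astrocyte libraries thus lay below all WT ones, without a call. Over the alternatives the log2FC was -1.01 to -0.43 (edgeR or DESeq2 adjusted p = 0.0513 to 0.477). The KIN effect in microglia minus that in astrocytes was -0.64 in the protein-coding fit (edgeR adjusted p = 0.588). Neurons had 6.50, 4.10 and 8.09 CPM in WT and 7.21, 3.24 and 9.03 CPM in KIN, so the genotypes overlapped in neurons. Microglia exceeded astrocytes by a log2FC of 2.03 (SE 0.32, edgeR adjusted p = 6.25e-08) in WT and 1.28 (SE 0.29, adjusted p = 0.000104) in KIN. For *Hspa1b* the same differences were 2.03 (adjusted p = 8.78e-08) and 1.54 (adjusted p = 2.02e-06). All 4 calls held in every alternative tried. Neurons were lower than microglia by a log2FC of -2.69 for *Hspa1a* and -3.17 for *Hspa1b* in WT, and -1.26 and -1.62 in KIN, each called. Without KIN neuron replicate 2 the *Hspa1a* difference in KIN was -0.90 (adjusted p = 0.0502). The immediate-early list split the fractions the same way, with 1147 to 1348 CPM in microglia, 92.9 to 178 CPM in astrocytes and 165 to 223 CPM in neurons, and its part in the HSP70 levels was not tested.

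**Figure D3:**
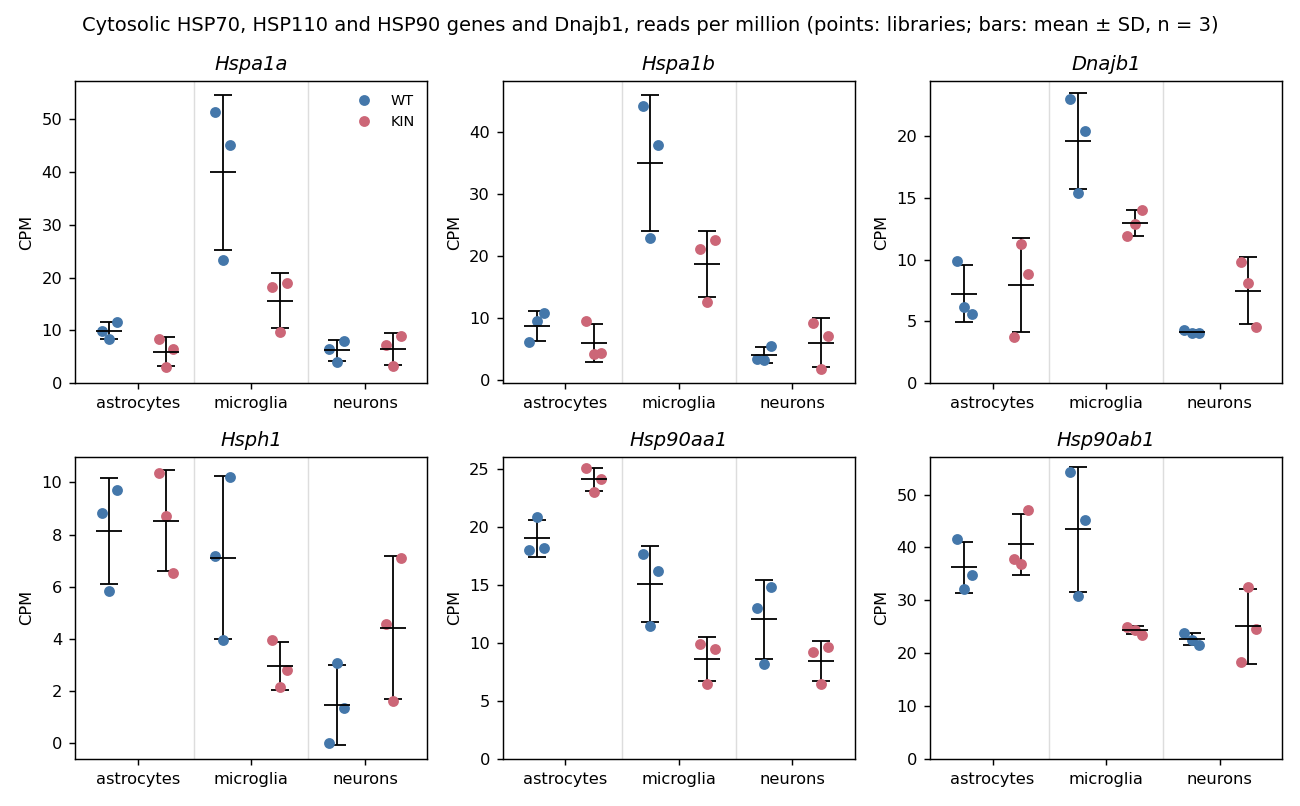
CPM of *Hspa1a*, *Hspa1b*, *Dnajb1*, *Hsph1*, *Hsp90aa1* and *Hsp90ab1* in each fraction and genotype (points are libraries, bars mean ± SD, n = 3). WT microglia hold the highest *Hspa1a* and *Hspa1b* points (51.4 and 44.2 CPM), and for both genes every microglia library lies above every neuron library.

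HSF1 binds arrays of the unit GAA and its inverse TTC. The motif GAANNTTC, which reads the same on both strands, was searched in the RefSeq promoter windows (GRCm38.p6, 250 bases before to 50 after the start). It was present in 17 of the 73 members with a window (23.3%) and in 2442 of 27025 genes (9.04%). Windows with 3 such units in a row, which also contain the shorter motif, were found for 4 members (5.48%), *Dnajb6*, *Hspd1*, *Hspe1* and *Hsph1*, and for 0.662% of genes. The windows of *Dnajb1*, the main J-domain partner of inducible HSP70, held no match, and *Hsp90aa1* and *Hsp90ab1* had no window. Stretches with the units in capitals are shown for some members with a match. They are the inducible HSP70 pair, its J-domain partner Dnaja1, Hsph1 and the shared promoter of the mitochondrial chaperonins. In GRCm38.p6 they lie at chr17:34972223-34972290 (Hspa1a, minus), chr17:34959305-34959372 (Hspa1b, minus), chr4:40722314-40722381 (Dnaja1, plus), chr5:149636287-149636325 (Hsph1, minus) and chr1:55088034-55088101 (Hspd1, minus; Hspe1 is read from the opposite strand of the same stretch).
Hspa1a: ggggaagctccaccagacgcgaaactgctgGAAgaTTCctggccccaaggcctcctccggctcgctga
Hspa1b: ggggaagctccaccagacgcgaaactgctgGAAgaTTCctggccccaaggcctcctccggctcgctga
Dnaja1: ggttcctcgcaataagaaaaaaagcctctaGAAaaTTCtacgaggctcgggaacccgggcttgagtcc
Hsph1: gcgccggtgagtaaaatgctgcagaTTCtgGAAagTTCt
Hspd1: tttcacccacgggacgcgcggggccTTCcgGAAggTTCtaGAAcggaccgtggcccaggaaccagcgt
The *Hspa1a* and *Hspa1b* stretches are identical, and their whole 300-base windows agree at 296 bases. In microglia the median KIN log2FC was -0.62 for the 13 tested members with the motif and -0.06 for the 43 with a window but no motif. In astrocytes the medians were 0.12 (14 members) and 0.23 (44 members), and in neurons -0.08 (7 members) and 0.00 (26 members). These medians are descriptions, and a match does not show that a factor binds there. The members are not independent, since the HSP70 pair may share reads and *Hspd1* and *Hspe1* share a promoter. No median was taken over all genes with the motif.

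*Hspa8* was high in every library, at 926 to 3494 CPM from all transcripts. KIN astrocytes had 1975, 3494 and 3368 CPM and WT astrocytes 1871, 2055 and 1765 CPM, with overlap at KIN replicate 1 and a log2FC of 0.62 (edgeR adjusted p = 0.107). From protein-coding transcripts alone the values were 91.9, 82.4 and 98.9 CPM in KIN (91.1 ± 8.29, SD, n = 3) and 43.7, 54.3 and 44.8 CPM in WT (47.6 ± 5.79, SD, n = 3). All KIN libraries then lay above all WT libraries, with a log2FC of 0.91 (SE 0.20, edgeR adjusted p = 0.00129), which is short of the 2-fold needed for a call. In this fraction the oligodendrocyte (356 to 553 CPM in WT, 616 to 631 CPM in KIN), ependymal (22.6 to 25.4 and 40.0 to 47.6 CPM) and immediate-early (92.9 to 121 and 140.0 to 178 CPM) marker sums were also higher in KIN, and the astrocyte sum was lower (494 to 729 and 277 to 300.3 CPM). Their part in the *Hspa8* value was not tested. In microglia the protein-coding log2FC was -0.01 (adjusted p = 0.995). The fraction difference depended on the transcripts as well. KIN microglia were lower than KIN astrocytes by -1.06 (adjusted p = 3.17e-05) from all transcripts, which was under 2-fold without KIN astrocyte replicate 2 (-0.93), replicate 3 (-0.97) or KIN microglia replicate 2 (-0.99), and by -0.30 from protein-coding ones (adjusted p = 0.260). KIN neurons were lower than KIN astrocytes by -1.25 and -0.58 in the same order (adjusted p = 1.59e-06 and 0.0413).

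None of the remaining HSP70 genes was called between genotypes. *Hspa5*, encoding the HSP70 of the endoplasmic reticulum (BiP), had 42.1, 36.7 and 27.2 CPM in WT microglia and 14.1, 18.9 and 13.2 CPM in WT astrocytes. The groups did not overlap and the log2FC of 1.22 (SE 0.31, edgeR adjusted p = 0.00101) held in every alternative. KIN microglia had 23.4, 30.9 and 33.3 CPM, against 17.6, 16.4 and 22.6 CPM in KIN astrocytes, which was not called. *Hspa2*, an HSP70 best known from the testis, was lower in KIN neurons than in KIN astrocytes (0.00 to 2.62 against 4.98 to 9.72 CPM, log2FC -2.49, adjusted p = 0.000290). In microglia it had 5.67, 3.97 and 3.83 CPM in WT and 1.99, 3.23 and 3.16 CPM in KIN, without overlap, and the log2FC of -0.70 did not pass (adjusted p = 0.528). *Hspa9*, the mitochondrial HSP70, ranged from 1.03 to 8.15 CPM over all libraries. *Hspa4*, an HSP110 exchange factor, had 9.14, 7.54 and 9.12 CPM in KIN microglia, all above the 7.17, 6.45 and 5.53 CPM of WT. *Hspa12a* (0.00 to 4.24 CPM) and *Hspa13* (0.00 to 2.70 CPM) were low throughout.

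*Hsph1*, the inducible HSP110 exchange factor, fell short of the call in microglia with 7.17, 3.97 and 10.2 CPM in WT and 3.97, 2.15 and 2.81 CPM in KIN. The lowest WT library touched the highest KIN library, and the log2FC was -1.28 (edgeR adjusted p = 0.0925). *Hsph1* was lower in KIN microglia than in KIN astrocytes (10.4, 8.70 and 6.52 CPM) by a log2FC of -1.54 (SE 0.37, adjusted p = 0.000262). In WT neurons it was 0.00, 3.08 and 1.35 CPM and was called lower than in both glial fractions, with log2FC -2.33 against astrocytes and -2.19 against microglia. Those neuron values rest on few reads, and without WT neuron replicate 1 neither passed (-1.73, adjusted p = 0.0867, and -1.59, adjusted p = 0.136). The second did not pass without WT microglia replicate 3 either (-1.89, adjusted p = 0.0713).

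*Hsp90aa1* encodes the inducible cytosolic HSP90. It stood at 18.0, 20.8 and 18.2 CPM in WT and 25.1, 23.0 and 24.2 CPM in KIN astrocytes, and in the opposite order in microglia, at 17.6, 11.4 and 16.2 CPM in WT and 9.93, 6.46 and 9.47 CPM in KIN. Neither fraction overlapped between genotypes, but neither passed (microglia log2FC -0.83, edgeR adjusted p = 0.140). The difference between the fractions' effects was -1.15 (adjusted p = 0.0981). It passed without WT astrocyte replicate 2 (-1.26, adjusted p = 0.0498) and without WT microglia replicate 2 (-1.31, adjusted p = 0.0321), the library that stood apart. KIN astrocytes thus held more than KIN microglia and KIN neurons (9.17, 6.49 and 9.67 CPM), with log2FC of -1.49 (SE 0.25, adjusted p = 2.19e-07) and -1.54 (SE 0.29, adjusted p = 4.51e-06) for these fractions. *Hsp90ab1*, the constitutive cytosolic HSP90, had 54.4, 30.8 and 45.1 CPM in WT and 25.0, 24.4 and 23.5 CPM in KIN microglia. The KIN libraries lay close together below the WT libraries (log2FC -0.85, adjusted p = 0.0741). Its difference between the fractions' effects passed without WT microglia replicate 2 (-1.20, adjusted p = 0.0225). *Hsp90b1*, the HSP90 of the endoplasmic reticulum (GRP94), was lower in neurons than in microglia in WT (log2FC -1.31, adjusted p = 0.0271) and in KIN (-1.59, adjusted p = 0.000149). The WT call was lost without WT microglia replicate 1 (adjusted p = 0.108) and WT neuron replicates 1 (0.229) and 3 (0.0685), and the KIN call held in every alternative. Its KIN microglia values were 13.1, 13.3 and 14.4 CPM and its KIN neuron values 5.90, 1.62 and 5.80 CPM.

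Of the mitochondrial chaperonin, *Hspd1* (HSP60) had 4.90, 7.67 and 9.20 CPM in KIN and 2.47, 5.53 and 3.45 CPM in WT astrocytes, with overlap and a log2FC of 0.86 (edgeR adjusted p = 0.0978), which was 1.20 (adjusted p = 0.0170) without WT astrocyte replicate 2. It was lower in KIN neurons than in KIN astrocytes (log2FC -1.63, adjusted p = 0.00471), but not without KIN neuron replicate 2 (-1.24, adjusted p = 0.0574). *Hspe1*, the co-chaperonin HSP10 that is transcribed from the same promoter in the opposite direction, was at 2.79 CPM or less in all libraries. Reads were counted without strand, so where genes overlap on opposite strands their reads cannot be told apart.

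Small HSPs were mainly a matter of 1 gene. *Cryab* (chr9:50651859-50668567, plus strand) encodes alphaB-crystallin, a small HSP known from oligodendrocytes and astrocytes. It had 12.7, 28.9 and 17.6 CPM in WT and 29.7, 34.3 and 26.5 CPM in KIN astrocytes, which overlapped at WT replicate 2 (log2FC 0.58, edgeR adjusted p = 0.0976). In microglia it was 1.49, 0.496 and 1.28 CPM in WT and 0.00, 0.718 and 0.00 CPM in KIN. All microglia libraries were thus far below all astrocyte libraries, and the log2FC in WT was -4.02 (SE 0.47, adjusted p = 4.69e-13). KIN astrocytes held 239 reads and KIN microglia 2, a CPM ratio of 121 (95% counting interval 33.2 to 1007). KIN neurons held 1 read (ratio 128, interval 22.8 to 5085). WT neurons held 3 reads against 181 in WT astrocytes (ratio 17.5, interval 5.90 to 85.7), all in replicate 2. That neuron library also had the highest oligodendrocyte marker sum of its fraction, 263 CPM, where the lowest WT neuron library had 21.6 CPM. The oligodendrocyte list was likewise higher in the astrocyte fraction than in the others, and its part in the *Cryab* level was not tested.

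**Figure D4:**
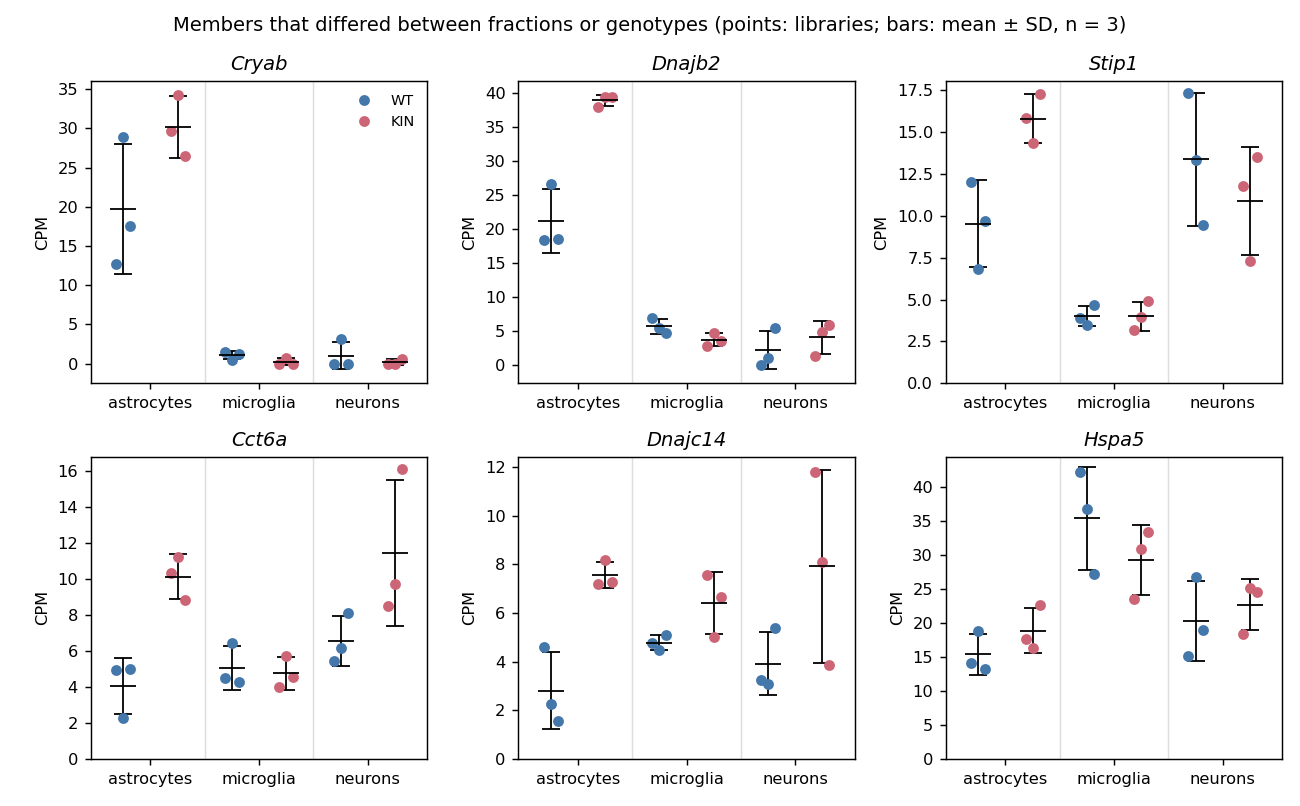
CPM of *Cryab*, *Dnajb2*, *Stip1*, *Cct6a*, *Dnajc14* and *Hspa5* in each fraction and genotype (points are libraries, bars mean ± SD, n = 3). *Cryab* (12.7 to 34.3 CPM) and *Dnajb2* (18.4 to 39.5 CPM) are far higher in the astrocyte libraries than in the others, and *Stip1* is lowest in microglia (3.18 to 4.91 CPM).

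The other small HSPs were scarce. *Hspb1* (HSP27) had 1.44, 4.6 and 1.92 CPM in KIN astrocytes and 0.655, 0.00 and 0.00 CPM in KIN neurons, where it was called lower (19 against 1 reads, ratio 10.2, 95% counting interval 1.62 to 424). That call was lost without KIN astrocyte replicate 2 (adjusted p = 0.138) and without KIN neuron replicates 2 (0.0805) and 3 (0.108). *Hspb6* stayed at 2.43 CPM or less and *Hspb8*, the partner of BAG3 in selective autophagy, at 4.05 CPM or less. *Hspb3*, better known from muscle, gave 16 reads in WT microglia and 1 in WT astrocytes (ratio 18.9, interval 2.93 to 791), and was not tested without WT microglia replicate 1 or 3. *Hspb11*, named as a small HSP but better known as the intraflagellar transport protein IFT25, was higher in KIN neurons (9.17, 7.30 and 7.74 CPM) than in KIN astrocytes (3.46, 2.05 and 2.68 CPM). Its log2FC was 1.45 (SE 0.42, edgeR adjusted p = 0.00415), and only 7.56% of its reads came from protein-coding transcripts. Its calls against microglia were lost in WT without WT neuron replicate 2 (0.74, adjusted p = 0.567) or 1 (0.0638) and WT microglia replicate 2 (0.109) or 3 (0.0752), and in KIN without KIN microglia replicate 2 (0.93, adjusted p = 0.116) or 3 (0.0599) and KIN neuron replicate 1 (0.0781).

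Among the J-domain proteins, *Dnajb2* marked the astrocyte fraction. It encodes a J-domain protein that binds ubiquitinated clients and passes them to the proteasome. Astrocytes had 18.4, 26.7 and 18.5 CPM in WT and 38.0, 39.4 and 39.5 CPM in KIN. The 3 KIN libraries lay within a narrow range above all WT libraries, with a log2FC of 0.86 (edgeR adjusted p = 0.00494) that is under 2-fold, and 1.06 (adjusted p = 5.7e-05) without WT replicate 2, where 4.15% of all genes rose. Microglia ran the other way, with 6.87, 5.46 and 4.68 CPM in WT and 2.78, 4.67 and 3.51 CPM in KIN. The difference between these effects was -1.50 (adjusted p = 0.0650). It passed without WT astrocyte replicate 2 (-1.74, adjusted p = 0.0155) and among genes with a mean of at least 10 counts (-1.49, adjusted p = 0.0469). *Dnajb2* was lower in microglia than in astrocytes by -1.85 (SE 0.35, adjusted p = 6.71e-06) in WT and -3.39 (SE 0.28, adjusted p = 2.71e-22) in KIN. In neurons it was lower than in astrocytes by -3.39 (SE 0.56, adjusted p = 4.15e-07) and -3.33 (SE 0.33, adjusted p = 2.22e-17). These 4 calls held in every alternative. In KIN astrocytes 7 of the 9 neuronal markers were called lower and 0 higher, and 2 of 6 oligodendrocyte markers were called higher. The neuronal sum overlapped, at 45.2 to 136 CPM in WT and 35.8 to 56.8 CPM in KIN. The part of these lists in the *Dnajb2* difference was not tested.

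*Dnajc14*, encoding a J-domain protein of the endoplasmic reticulum membrane, was called higher in KIN astrocytes. The values were 4.59, 2.28 and 1.57 CPM in WT and 7.20, 8.19 and 7.29 CPM in KIN, with no overlap (log2FC 1.41, SE 0.36, edgeR adjusted p = 0.00552). Without WT astrocyte replicate 3 the log2FC was 1.12 (adjusted p = 0.0882), with DESeq2 the adjusted p was 0.0801, and from protein-coding transcripts, which gave 46.8% of its reads, the log2FC was 0.59 (adjusted p = 0.531). *Dnajc15*, a J-domain protein of the mitochondrial inner membrane, had 4.61, 5.63 and 6.90 CPM in KIN and 2.83, 2.60 and 2.51 CPM in WT astrocytes. Those groups did not overlap either, but the log2FC of 1.07 missed the threshold (adjusted p = 0.0513), which that from protein-coding transcripts passed (1.33, adjusted p = 0.0498). Several marker sums moved with the genotype in astrocytes without overlap, beside *Dnajb2*, *Dnajc14* and *Dnajc15* alike. The ependymal (0 of 4 genes called), oligodendrocyte (2 of 6 called higher) and immediate-early sums (1 of 11 called higher) were higher and the astrocyte sum was lower (3 of 7 genes called lower), with the values given for *Hspa8*. No gene of these 4 lists was at 0, and their part in the J-domain gene differences was not tested.

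*Dnajb1*, the main J-domain partner of inducible HSP70, had 23.0, 15.4 and 20.4 CPM in WT microglia, all above the 9.89, 6.18 and 5.64 CPM of WT astrocytes (log2FC 1.48, SE 0.33, edgeR adjusted p = 0.000150). KIN microglia had 11.9, 12.9 and 14.0 CPM, all below WT, with a log2FC of -0.61 that did not pass (adjusted p = 0.278). WT neurons had 4.34, 4.10 and 4.04 CPM and were lower than WT microglia by -2.21 (adjusted p = 0.000108). *Dnaja1*, a further cytosolic partner of HSP70, had 14.6, 6.95 and 13.6 CPM in WT and 7.15, 5.38 and 10.9 CPM in KIN microglia, with overlap. *Dnaja2*, also a cytosolic partner, gave 1 read in WT neurons against 31 in WT astrocytes (CPM ratio 8.99, 95% counting interval 1.5 to 367) and 26 in WT microglia (ratio 8.90, interval 1.46 to 365). Both calls were lost without WT neuron replicate 2 (adjusted p = 0.175 and 0.177) or 3 (0.114 and 0.116), the first also without any single WT astrocyte library (0.0508 to 0.0813) and the second without WT microglia replicate 2 (0.0722) or 3 (0.0786). *Dnajb6*, a suppressor of polyglutamine aggregation, was higher in KIN microglia (4.37, 6.46 and 5.26 CPM) than in KIN astrocytes (2.02, 3.58 and 1.92 CPM), with a log2FC of 1.16 (adjusted p = 0.0238). It did not pass without KIN astrocyte replicates 1 (adjusted p = 0.125) or 3 (0.101) or KIN microglia replicate 2 (0.111).

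Other J-domain proteins were called only between fractions. *Dnajc6*, encoding auxilin, which uncoats clathrin vesicles with HSC70, was lower in microglia than in astrocytes in WT (-1.69, edgeR adjusted p = 0.00529) and KIN (-2.45, adjusted p = 0.000603), the WT call being lost without WT microglia replicates 1 (0.0797) and 2 (0.0527). Its neuron calls against astrocytes were lost in WT without WT astrocyte replicate 1 (0.0554) or 3 (0.0570) or WT neuron replicate 1 (0.0630) or 3 (0.0773), and in KIN without KIN neuron replicate 3 (0.0674). Its WT astrocyte values were 8.48, 3.58 and 7.84 CPM. The neuronal marker sum was 45.2 to 136 CPM in WT and 35.8 to 56.8 CPM in KIN astrocytes, with overlap. *Dnajc3*, an HSP70 co-chaperone of the endoplasmic reticulum, gave 61 reads in WT astrocytes and 2 in WT neurons (CPM ratio 8.85, 95% counting interval 2.35 to 74.7). *Dnajb12*, of the endoplasmic reticulum membrane, gave 39 reads in KIN astrocytes and 3 in KIN neurons (ratio 6.97, interval 2.22 to 35.3). Of the calls of these genes against astrocytes, that of *Dnajc3* in KIN was lost without KIN astrocyte replicate 2 (adjusted p = 0.151) or KIN neuron replicate 1 (0.198) or 2 (0.116). That of *Dnajb12* in WT was lost without WT astrocyte replicate 2 (0.0928) or 3 (0.0570) or WT neuron replicate 2 (0.175) or 3 (0.108). Its call against microglia in KIN was lost without KIN microglia replicate 2 (0.137) or 3 (0.0519) or KIN neuron replicate 1 (0.117) or 2 (0.166). *Dnajb13*, of motile cilia, was lower in KIN neurons than in KIN microglia (45 against 3 reads, ratio 7.93, interval 2.55 to 39.9). *Dnaja4* was called lower in neurons than in astrocytes in both genotypes, at -2.55 in WT and -1.80 in KIN. The WT call was lost without WT astrocyte replicate 2 (adjusted p = 0.0895) and WT neuron replicates 1 (0.147) and 3 (0.0968). *Dnajc5*, encoding the synaptic vesicle protein CSPalpha, was 6.05, 5.63 and 6.52 CPM in KIN and 8.83, 7.48 and 11.0 CPM in WT astrocytes, without overlap and without a call. Each of the following calls was lost without some single library. In WT microglia *Dnajb4* (log2FC 1.31) was higher than in astrocytes, but not without WT astrocyte replicate 3 (adjusted p = 0.134) or WT microglia replicates 1 (0.0852) and 3 (0.0780). The call was also lost from protein-coding transcripts, which gave 35.7% of *Dnajb4* reads. *Dnajb13* (1.60) was higher too, but not without WT astrocyte replicates 2 (0.0775) and 3 (0.184) or WT microglia replicate 1 (0.214). *Dnajc18* (-1.20) was lower there, but not without any 1 of the WT astrocyte libraries (0.0502 to 0.117) or WT microglia replicates 2 (0.0840) and 3 (0.146). *Dnajc4* gave 18 reads in WT astrocytes and 2 in WT microglia (ratio 7.63, interval 1.83 to 67.8), a call lost without WT astrocyte replicate 3 (0.0844) or WT microglia replicates 1 (0.0959) and 3 (0.133). *Dnajc21*, which acts in ribosome biogenesis, was higher in KIN neurons than in KIN astrocytes (1.89), but not without any 1 of the KIN astrocyte libraries (0.0533 to 0.128) or KIN neuron replicate 3 (0.0563). *Dnajc13*, of endosomes, was higher in KIN microglia than in KIN astrocytes (1.08) and in KIN neurons (-1.92 for neurons). The first was lost without KIN astrocyte replicates 2 (0.216) and 3 (0.0742) or KIN microglia replicates 2 (0.137) and 3 (0.101), the second without KIN neuron replicate 1 (0.0837). *Dnajb9*, of the endoplasmic reticulum, and *Dnajc16* were lower in KIN neurons than in KIN microglia (-1.49 and -1.71). *Dnajb9* was lost without KIN microglia replicates 2 (0.237) and 3 (0.0964) or KIN neuron replicates 1 (0.260) and 2 (0.179), and *Dnajc16* without KIN microglia replicates 1 (0.0754) and 2 (0.181) or KIN neuron replicates 2 (0.204) and 3 (0.186). *Bag1* was higher in KIN neurons than in KIN astrocytes (1.15), but not without any 1 of the KIN astrocyte libraries (0.0518 to 0.129) or KIN neuron replicate 3 (0.557). *Bag6* was higher in WT neurons than in WT astrocytes (1.08), but not without WT astrocyte replicate 1 (0.0680) or 3 (0.0888). *Cct6a* was higher in KIN neurons than in KIN microglia (1.22), but not without KIN neuron replicate 3 (0.0637) or from protein-coding transcripts (0.697, adjusted p = 0.391).

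*Dnajc7*, a J-domain protein with HSP70 and HSP90 binding repeats, ranged from 14.3 to 33.2 CPM.

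The TRiC/CCT subunits had 1 call between genotypes. *Cct6a* (chr5:129864049-129875406, plus strand) had 4.95, 2.28 and 5.02 CPM in WT and 10.4, 11.3 and 8.82 CPM in KIN astrocytes. No KIN library overlapped a WT library, and the log2FC was 1.29 (SE 0.32, edgeR adjusted p = 0.00407). Without WT astrocyte replicate 2, the lowest library, it was 0.99 (adjusted p = 0.0150), under 2-fold, and with DESeq2 the adjusted p was 0.0576. Protein-coding transcripts gave 45.8% of the *Cct6a* reads. From these alone the groups overlapped, at 4.03, 1.13 and 5.54 CPM in WT and 11.4, 9.98 and 5.01 CPM in KIN. The log2FC was then 1.24 (edgeR adjusted p = 0.0459). The ependymal, oligodendrocyte and immediate-early sums were higher and the astrocyte sum was lower in the same KIN libraries, with the values given for *Hspa8*, and their part in the *Cct6a* difference was not tested. All 8 subunits had a positive log2FC in KIN astrocytes, with a median of 0.52, against 5842 positive values among 11751 genes. The subunits are parts of 1 complex and were measured in the same libraries, so they are not independent. In microglia 5 of 8 were positive (median 0.11) and in neurons 7 of 8 (median 0.49), none of them called.

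*Cct3* had 10.1, 11.3 and 13.8 CPM in KIN and 7.06, 8.78 and 7.53 CPM in WT astrocytes, without overlap. In KIN it was lower in microglia than in astrocytes (-1.56, SE 0.32, edgeR adjusted p = 2.27e-05) and higher in neurons than in microglia (1.76, SE 0.35, adjusted p = 1.2e-05), and both calls held in every alternative. *Tcp1* from all transcripts was 313, 574 and 468 CPM in KIN and 253, 326 and 267 CPM in WT astrocytes (0.66, adjusted p = 0.0520). From protein-coding transcripts its log2FC was 0.24 (adjusted p = 0.791). *Cct8* had 7.55, 7.90 and 6.31 CPM in KIN and 4.18, 2.48 and 2.98 CPM in WT microglia, and its log2FC of 1.11 did not pass (adjusted p = 0.104). *Cct2*, *Cct4*, *Cct5* and *Cct7* lay between 0.426 and 25.6 CPM, and none was called between genotypes or fractions.

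Among the adaptors and BAG genes, *Stip1*, which links HSP70 to HSP90, separated microglia from both other fractions. It had 3.88, 3.47 and 4.68 CPM in WT and 3.18, 3.95 and 4.91 CPM in KIN microglia. WT astrocytes had 12.0, 6.83 and 9.72 CPM and KIN astrocytes 15.8, 14.3 and 17.3 CPM, so the genotypes did not overlap (log2FC 0.73, edgeR adjusted p = 0.0505). Microglia were lower than astrocytes by -1.20 (SE 0.39, adjusted p = 0.0126) in WT, which was lost without WT astrocyte replicate 1 (0.0879) or WT microglia replicate 1 (0.0703), and -1.97 (SE 0.31, adjusted p = 1.54e-08) in KIN. Neurons were higher than microglia by 1.76 (SE 0.44, adjusted p = 0.00145) and 1.40 (SE 0.36, adjusted p = 0.00105). *St13*, encoding the HSP70-interacting protein HIP, ranged from 17.2 to 29.3 CPM without a call.

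*Bag1*, an exchange factor that brings HSP70 to the proteasome, was higher in microglia than in astrocytes in WT (1.24, edgeR adjusted p = 0.0394) and in KIN (1.48, SE 0.39, adjusted p = 0.00105). The WT call was lost without WT astrocyte replicates 1 (adjusted p = 0.203) and 2 (0.0948) and WT microglia replicates 1 (0.138) and 2 (0.0833). KIN microglia had 8.34, 6.46 and 7.37 CPM and KIN astrocytes 3.17, 1.02 and 3.07 CPM. *Bag6*, which shields exposed hydrophobic segments in the cytosol, was higher in neurons than in microglia in WT (42.3, 46.2 and 33.7 against 18.5, 27.3 and 12.3 CPM, log2FC 1.10) and in KIN (34.7, 37.3 and 49.6 against 21.5, 16.9 and 18.2 CPM, log2FC 1.07). The WT value was 0.85 (adjusted p = 0.103) without WT microglia replicate 3, and the KIN value 0.99 without KIN microglia replicate 2 or KIN neuron replicate 3. *Bag3*, the exchange factor of selective autophagy, had 3.74, 4.09 and 3.45 CPM in KIN and 1.77, 1.95 and 1.88 CPM in WT astrocytes, without overlap and without a call. It gave 30 reads in KIN astrocytes, 24 in KIN microglia and 1 in KIN neurons, a ratio of 16.1 (95% counting interval 2.68 to 657) and 12.7 (interval 2.07 to 522) against the neurons. *Hsf1* itself ranged from 1.08 to 7.21 CPM and was not called in any comparison.

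Further folding genes were read from a list of 41, among them other heat shock factors, FKBP co-chaperones, prefoldins and protein disulfide isomerases of the endoplasmic reticulum, of which 38 passed the read filter. In astrocytes 1 of 38 rose in KIN, *Pdia4*, a protein disulfide isomerase (log2FC 1.20, SE 0.37, edgeR adjusted p = 0.0258), where 2.43% of all genes rose, and the list's median was 0.45. The *Pdia4* call was lost without WT astrocyte replicate 1 (adjusted p = 0.0854) or 3 (0.0929) and without KIN astrocyte replicate 1 (0.103) or 3 (0.126). Without WT astrocyte replicate 2, 5 genes were called, where 4.15% of all genes rose. DESeq2 called 0 of the 38, and 14 of the 38 (36.8%, all higher in KIN) had an unadjusted p under 0.05, where 10.4% of all genes were higher and 14.5% lower at that p. The ependymal, oligodendrocyte and immediate-early sums were higher and the astrocyte sum lower in the same KIN libraries, with the values given for *Hspa8*. Their part in these differences was not tested. Medians were 0.06 in microglia and 0.21 in neurons. There edgeR and DESeq2 each called 0, and 4 of 38 genes in microglia (10.5%, all genes 12.0%) and 3 of 30 in neurons (10.0%, all genes 5.04%) had an unadjusted p under 0.05. WT microglia had 4 of 38 higher and 1 lower than astrocytes (all genes 12.0% and 13.1%), with *Hsf2*, *Fkbp5*, *Unc45a* and *Pdia3* higher (1.52, 1.69, 1.44 and 1.24). *Pdia3* was under 2-fold without WT astrocyte replicate 1 (0.98), and *Unc45a* without WT microglia replicate 2 (0.83), while from protein-coding transcripts *Unc45a* had the other sign (-0.92, adjusted p = 0.332). KIN microglia had 2 higher and 8 lower (all genes 17.5% and 18.8%), *Fkbp5* (1.48) and *Sdf2l1* (1.32) being the higher ones. The *Sdf2l1* call was lost without any 1 of the KIN astrocyte libraries (adjusted p = 0.0592 to 0.125) or KIN microglia replicate 1 (0.449). In KIN neurons 2 were higher and 9 lower than in astrocytes (all genes 13.2% and 16.9%), the lower ones with *Trap1*, encoding mitochondrial HSP90 (-3.05, SE 0.58, adjusted p = 6.12e-06), and *Pdia3* (-1.72, SE 0.33, adjusted p = 6.58e-06). *Trap1* was 0 to 1.31 CPM in KIN neurons and 7.16 to 8.35 CPM in KIN astrocytes. In WT it was not called, with 5.13 to 6.5 CPM in neurons and 2.2 to 5.85 CPM in astrocytes. WT neurons had 3 higher and 2 lower than astrocytes (all genes 6.07% and 11.9%). Against microglia, neurons had 2 higher and 4 lower in WT (all genes 5.29% and 11.6%) and 2 higher and 5 lower in KIN (11.3% and 15.2%). *Canx* was lower in WT neurons than in astrocytes (-2.21, edgeR adjusted p = 0.00206) and microglia (-2.39, adjusted p = 0.000704), and both calls held in every alternative. The HSP90 co-chaperone gene *Unc45a* and *Hspbap1* were higher in neurons than in astrocytes in both genotypes, at 1.47 and 1.63 in WT and 1.67 and 2.28 in KIN. From protein-coding transcripts *Unc45a* was not called in either (adjusted p = 1 in WT and 0.332 in KIN).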

How the data were processed

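The authors sequenced panRNA libraries with molecular identifiers, trimmed reads with Cutadapt 4.6, mapped them stepwise to mm39 with Bowtie2 2.4.4 and counted them without strand with HTSeq 2.0.2. The deposited values used here are raw counts per transcript (whole reads after removal of duplicates). Another 60 columns of normalized values, per library or per group, and the authors' own comparison columns (mean levels, fold changes, p-values) were not used. Counts were summed by gene name and scaled to the TMM-adjusted library total over all 18 libraries (CPM). edgeR 4.0.16 (TMM, quasi-likelihood test, R 4.3.3) was run on all names that reached 5 reads in 2 or more of the libraries fitted. Each genotype comparison used the 6 libraries of its fraction, and fractions were compared within a genotype. P-values measure the spread between these libraries only. The fractions came in sequence from single brains, but which libraries share a mouse is not given in the sources used here. Counting intervals are 95% and cover counting error only.

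Members and lists were chosen with earlier results of these data known. Genes described are a list fixed by role, the called members (where more than 12 were called one way, the 6 largest without overlap and with 5 reads in every library of the higher group), and the 3 smallest interaction p-values; further members were added after their values were seen. Other folding genes are counted between genotypes and between fractions, and some of the called ones are named. Promoter sequences came from RefSeq tables (GRCm38.p6) and snoRNA sequences from GRCm39. The fits were tested on simulated counts. Alternatives were DESeq2 1.42.0, its size factors in edgeR, TMM without the 10 most abundant genes, no filter, a mean of at least 10 counts, adjusted p alone, a replicate block, all libraries in 1 fit, each library left out and, chosen after seeing the data, protein-coding transcripts alone.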

Additional observations from a re-analysis of the deposited data

How the results depend on the processing

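Of 88 member calls, 30 held in every alternative, 9 held in each alternative that could test them and 49 were lost in at least 1, among them the 3 between genotypes. The counts that follow are of members alone. The share of all genes called changed with the setting too, as given above for DESeq2 in astrocytes. A changed count is therefore not a result about the members. DESeq2 called 0 members between genotypes in astrocytes (2 with edgeR), 8 in microglia versus astrocytes in WT (14), 5 in neurons versus astrocytes in WT (9), 5 in neurons versus microglia in WT (10), 13 in microglia versus astrocytes in KIN (20), 11 in neurons versus astrocytes in KIN (18) and 9 in neurons versus microglia in KIN (14). A mean of at least 10 counts gave 8, 5, 12, 9 and 7 calls in microglia versus astrocytes and neurons versus astrocytes in WT and in microglia versus astrocytes, neurons versus astrocytes and neurons versus microglia in KIN, and 1 for the difference of the KIN effects (0 with the filter used). Of the 37 calls missing there, 36 were of members that were not tested under that minimum and 1 (*Hsp90b1* in neurons versus microglia in WT) was tested and lost. With protein-coding transcripts alone, chosen after seeing the data, neurons versus microglia had 6 calls in WT and 8 in KIN, 4 of the 26 calls missing over all comparisons were not tested, and the *Tcp1* difference of the KIN effects turned from -0.90 to 0.0454. The cause of the changes with DESeq2 and with protein-coding transcripts was not tested.

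Leaving out 1 library at a time gave 1 to 3 calls between genotypes in astrocytes, 0 to 4 in microglia and 0 in neurons. It gave 7 to 11 calls in microglia versus astrocytes, 5 to 8 in neurons versus astrocytes and 6 to 10 in neurons versus microglia in WT, and 15 to 22, 13 to 16 and 9 to 14 in the same order in KIN. For the difference of the KIN effects it gave 0 to 2 (*Dnajb2* and *Hsp90aa1* without WT astrocyte replicate 2, *Hsp90aa1* and *Hsp90ab1* without WT microglia replicate 2). The share of all genes called moved as well when a library was left out, with values given beside *Dnajb2* and *Hspa1b*. The counts in this paragraph are of members alone, so their changes are not results about the members. The mice were same-sex littermate pairs of KIN and WT, but the labels do not tie the replicate numbers to the pairs, and the numbers did not pair the samples by the correlation of same-numbered deviations from the group means (-0.124 to 0.0957 between genotypes, -0.0623 to 0.238 between fractions). It was over 0.1 for 2 of 3 numbers in microglia versus astrocytes in WT and for none in the other comparisons, and in neurons each of the 3 KIN libraries correlated best with the WT library of its number. A replicate block gave 3, 1 and 0 calls between genotypes in astrocytes, microglia and neurons, with *Dnajc15* passing in astrocytes (1.08, adjusted p = 0.0419) and *Hspa1a* at -1.34 (adjusted p = 0.00453) in microglia, 13, 9 and 9 calls between the fractions of WT, 19, 16 and 13 between those of KIN, and 1 (*Dnajb2*, -1.55, adjusted p = 0.0376) for the difference of the KIN effects. The shallow neuron libraries, where 45 members could be tested between genotypes, limit what was detectable there.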
